A study of Rattus norvegicus with 6 samples.

Results

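The RT1 complex is the major histocompatibility complex of the rat, and the genes described here are its members outside class II, that is, the rows of the deposited gene table whose name begins with RT1-, apart from RT1-Ba, RT1-Bb, RT1-Da, RT1-Db1, RT1-DMa, RT1-DMb, RT1-DOa and RT1-DOb. Of the 44 RT1- rows among 30957 rows, 36 met this rule and 8 class II rows were left out. RT1-Ha and RT1-Db2 remained in the set because the rule does not name them, although the file describes both as class II genes. RNA was sequenced from the ipsilateral lumbar enlargement of the spinal cord of adult female Wistar rats. In the BCP (bone cancer pain) group, living Walker 256 cells, a rat breast carcinoma line, had been placed in the medullary cavity of the left tibia. The sham group had received heat-killed Walker 256 cells at the same site, so the controls also carried tumour material. There were 3 libraries in each group, all from day 14, with 11779485 to 15004290 counts on genes. Whether each library came from a separate rat is not stated in the labels, so the p-values measure the spread between these libraries.

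Class I molecules consist of a heavy chain, which most of these genes encode, and the light chain beta-2-microglobulin, and they display peptides cut by the proteasome and carried into the endoplasmic reticulum by the transporter Tap1/Tap2. Classical class Ia molecules (RT1-A) present peptides to cytotoxic T cells that carry CD8, whereas the class Ib molecules of the CE, N, S, T and M series are more varied, and some are ligands of receptors on natural killer cells. Interferon gamma induces class I genes through factors such as Irf1 and Nlrc5, which act on a compact promoter with a kappa-B site, an interferon-stimulated response element (ISRE) and CCAAT boxes. In the resting central nervous system the level of class I molecules is low, and microglia and endothelial cells are known to raise it during inflammation.

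All 36 members lay on chromosome 20 of Rnor_6.0, between positions 154074 and 5421098. By their names 12 belonged to the M series, 8 to CE, 5 to T, 3 to A, 2 to N and 2 to S, and RT1-O1, RT1-P2-ps1, RT1-Ha and RT1-Db2 stood alone. Pseudogenes by name made up 5 of the members. The file annotated 23 members with the MHC class I protein complex and 18 with the KEGG pathway of antigen processing and presentation. The intervals of 14 members overlapped that of another member. RT1-CE2, for example, was given an interval of 304902 bases that held those of RT1-CE4, RT1-CE6, RT1-CE7, RT1-CE5 and RT1-CE3. RT1-A2 lay inside RT1-A1, RT1-A3 overlapped RT1-CE16, and RT1-T24-1 overlapped RT1-T24-2. These genes are close copies of each other, and how reads that match several of them were divided is not given in the sources used here, so the value of a member that overlaps or resembles another is uncertain.

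Promoter sequences are shown for 6 of the 11 members with at least 1000 counts over all libraries, the 3 with the largest and the 3 with the smallest fold change, a choice made after the values and the matches were seen, to compare their ISRE and kappa-B sites. Each covers 250 bases before to 50 bases after the gene start of RefSeq on GRCr8, a later build than that of the files, and was matched by symbol. Capitals mark matches to the ISRE core TTTCNNTTC and to the kappa-B site GGGANTCCC, searched on both strands. The longer TTTCTCTTTC in RT1-S3 does not match this core and is not marked. RT1-A2 (chr20:4872621-4872920 on the plus strand) and RT1-CE10 (chr20:3384930-3385229 on the minus strand) held both, RT1-CE5 (chr20:3484041-3484340 on the minus strand) held the ISRE core alone, and RT1-S3 (chr20:2675278-2675577 on the plus strand), RT1-M3-1 (chr20:1333317-1333616 on the minus strand) and RT1-T24-4 (chr20:2689083-2689382 on the plus strand) held neither.
RT1-A2: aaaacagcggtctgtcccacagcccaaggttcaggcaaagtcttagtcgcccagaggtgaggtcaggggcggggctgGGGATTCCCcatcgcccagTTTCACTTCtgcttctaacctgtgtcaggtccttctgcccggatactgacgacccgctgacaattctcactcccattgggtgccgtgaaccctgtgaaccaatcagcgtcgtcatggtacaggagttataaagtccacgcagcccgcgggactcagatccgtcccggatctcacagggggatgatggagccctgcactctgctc
RT1-CE10: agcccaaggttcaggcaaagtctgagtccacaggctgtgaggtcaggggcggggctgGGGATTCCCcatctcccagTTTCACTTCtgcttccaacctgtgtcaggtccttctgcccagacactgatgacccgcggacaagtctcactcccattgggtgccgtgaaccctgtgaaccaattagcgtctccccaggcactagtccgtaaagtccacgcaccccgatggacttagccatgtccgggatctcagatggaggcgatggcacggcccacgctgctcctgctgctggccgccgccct
RT1-CE5: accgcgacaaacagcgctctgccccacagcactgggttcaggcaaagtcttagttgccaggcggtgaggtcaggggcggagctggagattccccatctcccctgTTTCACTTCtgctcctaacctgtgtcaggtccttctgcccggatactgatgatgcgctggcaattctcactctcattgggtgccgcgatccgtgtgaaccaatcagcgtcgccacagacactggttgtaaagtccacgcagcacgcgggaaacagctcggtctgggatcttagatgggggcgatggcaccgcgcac
RT1-S3: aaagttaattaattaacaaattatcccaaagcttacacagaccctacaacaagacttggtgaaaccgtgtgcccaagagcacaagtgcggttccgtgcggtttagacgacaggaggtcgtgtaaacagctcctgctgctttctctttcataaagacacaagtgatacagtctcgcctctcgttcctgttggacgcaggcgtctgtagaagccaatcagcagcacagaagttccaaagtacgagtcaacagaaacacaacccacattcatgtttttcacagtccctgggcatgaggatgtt
RT1-M3-1: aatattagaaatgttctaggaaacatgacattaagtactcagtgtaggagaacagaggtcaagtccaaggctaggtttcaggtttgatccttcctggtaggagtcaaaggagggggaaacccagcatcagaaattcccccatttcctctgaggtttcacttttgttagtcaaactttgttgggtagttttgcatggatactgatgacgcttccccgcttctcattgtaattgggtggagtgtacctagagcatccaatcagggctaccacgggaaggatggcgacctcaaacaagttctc
RT1-T24-4: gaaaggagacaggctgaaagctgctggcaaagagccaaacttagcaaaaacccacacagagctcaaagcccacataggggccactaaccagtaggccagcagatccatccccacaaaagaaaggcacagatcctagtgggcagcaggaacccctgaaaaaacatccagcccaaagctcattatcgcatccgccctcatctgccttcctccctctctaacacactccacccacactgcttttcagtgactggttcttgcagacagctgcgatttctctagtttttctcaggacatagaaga

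In BCP rats 13 of the 36 members rose and none fell. Of the 36, 20 had enough reads to be tested by edgeR's quasi-likelihood test, and a call required a Benjamini-Hochberg adjusted p-value under 0.05 over all genes together with a log2 fold change (log2FC) over 1 in size. Over all 14908 tested genes 6.35% passed in the upward and 0.107% in the downward direction. At the adjusted p-value alone 14 members were higher, against 15.8% of all genes, and 0 were lower, against 12.1%. No member was lower with DESeq2 or with edgeR's likelihood ratio test either, and the 15 members with an unadjusted p under 0.05 were all higher. In 17 of the 20 members every BCP library lay above every sham library, which was so for 21.7% of all tested genes. The median log2FC of the tested members was 1.90, beside -0.01 over all tested genes. A member that passed the filter only through its BCP libraries had to differ. The median and the 13 rises thus describe the tested members and not all 36. RT1-A3, RT1-T24-1, RT1-CE3 and RT1-T24-2, which rose, were low in sham and needed their BCP libraries to pass. Their rises do not stand apart from the filter.

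**Figure D1:**
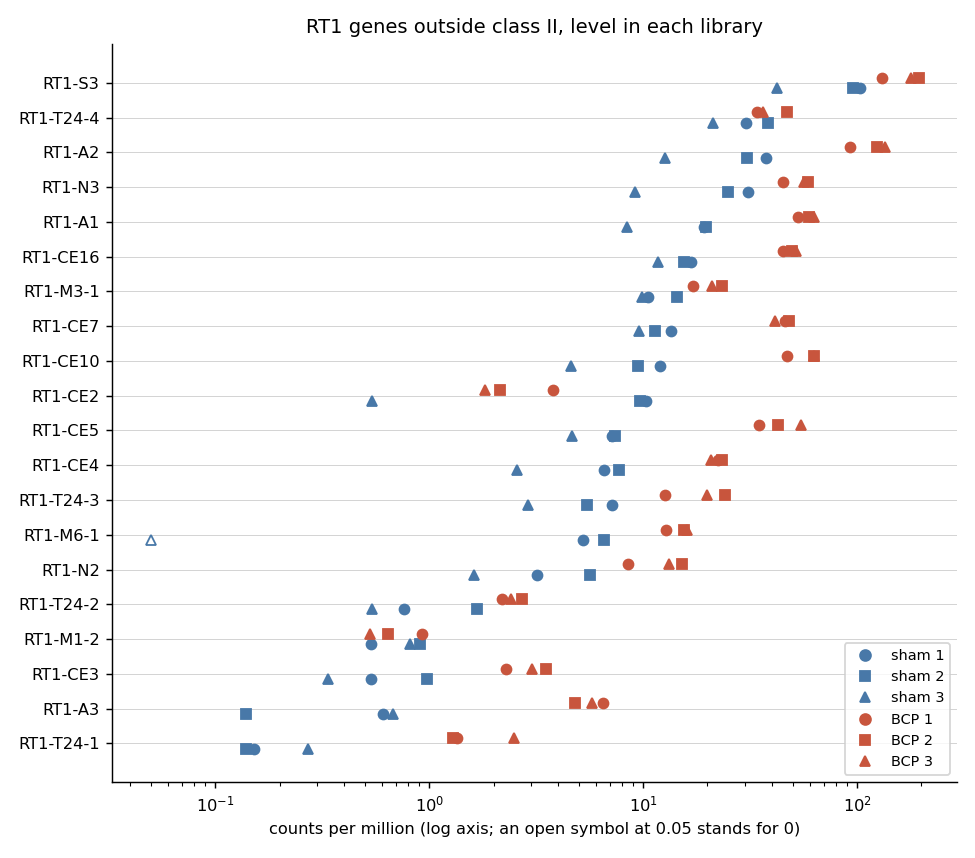
Level of the 20 tested RT1 genes in each library, in CPM on a log axis, with genes ordered by their sham mean. Blue symbols are the 3 sham and red symbols the 3 BCP libraries; red lies to the right of blue in 17 genes, and the sham 3 triangle is the lowest sham value in 17.

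Sham 3 stood apart from the other sham libraries in these genes. Its level was the lowest of the 3 sham libraries in 17 of 20 members, against 35.8% of all tested genes, and it was under 50% of the mean of sham 1 and sham 2 in 12 members, against 2.17% of all tested genes. The median ratio was 0.445 in the members and 0.991 over all genes. Without sham 3 the number of members that rose was again 13, against 6.19% of all genes tested in that fit, but RT1-T24-2 was lost, RT1-M6-1 was gained and RT1-CE2 became a fall, so the values without sham 3 are given beside the members they change.

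The classical genes RT1-A1 and RT1-A2 rose together. The level of RT1-A2 was 37.4, 30.5 and 12.7 CPM (counts of each library scaled to a common total, with TMM normalization) in sham 1 to 3 and 93.2, 124 and 136 in BCP 1 to 3. The BCP libraries were all above the sham libraries, and sham 3 was the lowest. Its log2FC was 2.14 ± 0.44 (SE) with an adjusted p of 0.0294. For RT1-A1 the levels were 19.2, 19.6 and 8.38 CPM in sham and 52.9, 59.8 and 63.2 in BCP, with a log2FC of 1.91 ± 0.34 (SE) and an adjusted p of 0.0200. These calls depended on single libraries: RT1-A2 passed in 1 and RT1-A1 in 2 of the 6 repeats without a library. The highest adjusted p was 0.0999 for RT1-A2 and 0.0755 for RT1-A1. Over these repeats the log2FC was 1.795 to 2.45 for RT1-A2 and 1.594 to 2.103 for RT1-A1. Without sham 3 both passed, with an adjusted p of 0.0130 for RT1-A2 and 1.75e-10 for RT1-A1. When the counts of both were added, as their intervals overlap, the log2FC was 2.06 with an adjusted p of 0.0282.

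RT1-A3 had the largest change of the tested members. Its counts were 8, 2 and 10 in sham and 77, 67 and 76 in BCP rats, a log2FC of 3.55 ± 0.34 (SE) with an adjusted p of 1.18e-07. Sham 3 was not low here. RT1-A3 was low in all sham libraries and passed the filter through its BCP libraries. The interval of RT1-A3 overlapped that of RT1-CE16 in this build, so its counts may not belong to it alone. RT1-CE16 itself was read at 16.7, 15.5 and 11.7 CPM in sham and 45.2, 49.5 and 52.1 in BCP rats. With a log2FC of 1.75 ± 0.11 (SE) and an adjusted p of 1.73e-09, RT1-CE16 varied little between replicates in both groups.

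Of the 7 tested CE genes, which encode class I heavy chains of the RT1-C/E region, 6 rose. RT1-CE10 went from 157, 136 and 68 counts in sham to 557, 884 and 835 in BCP rats, with a log2FC of 2.75 ± 0.36 (SE) and an adjusted p of 0.00689. RT1-CE5 went from 7.17, 7.40 and 4.66 to 35.0, 42.8 and 54.7 CPM, with a log2FC of 2.79 ± 0.24 (SE) and an adjusted p of 0.000305. In both genes the lowest BCP library was over 3 times the highest sham library. RT1-CE7 was at 13.5, 11.3 and 9.53 CPM in sham and 46.2, 47.9 and 41.2 in BCP rats, and its log2FC of 1.98 ± 0.11 (SE) had the smallest adjusted p of the members, 9.2e-11. RT1-CE4 was at 6.56, 7.75 and 2.57 in sham and 22.4, 23.3 and 20.7 CPM in BCP rats. Its log2FC was 1.98 ± 0.36 (SE) with an adjusted p of 0.0127. It passed in 4 of the 6 fits that left out 1 library, with the highest adjusted p at 0.0534. RT1-CE3 was low in sham, at 7, 14 and 5 counts, and reached 27, 49 and 40 counts in BCP rats, a log2FC of 2.25 ± 0.36 (SE) with an adjusted p of 8.38e-05.

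RT1-CE2 was the only tested CE gene that did not rise. Its counts were 135, 139 and 8 in sham 1 to 3 and 45, 30 and 24 in BCP 1 to 3. The BCP libraries thus lay between sham 3 and the other sham libraries. The log2FC was -1.41 ± 1.07 (SE) with an adjusted p of 0.433, and without sham 3 it was -1.97 with an adjusted p of 4.55e-06. Because its interval encloses those of other CE genes, the 6 overlapping CE genes were also summed, which gave 499, 532 and 261 counts in sham and 1318, 1674 and 1603 in BCP rats, a log2FC of 1.93 with an adjusted p of 0.0155.

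**Figure D2:**
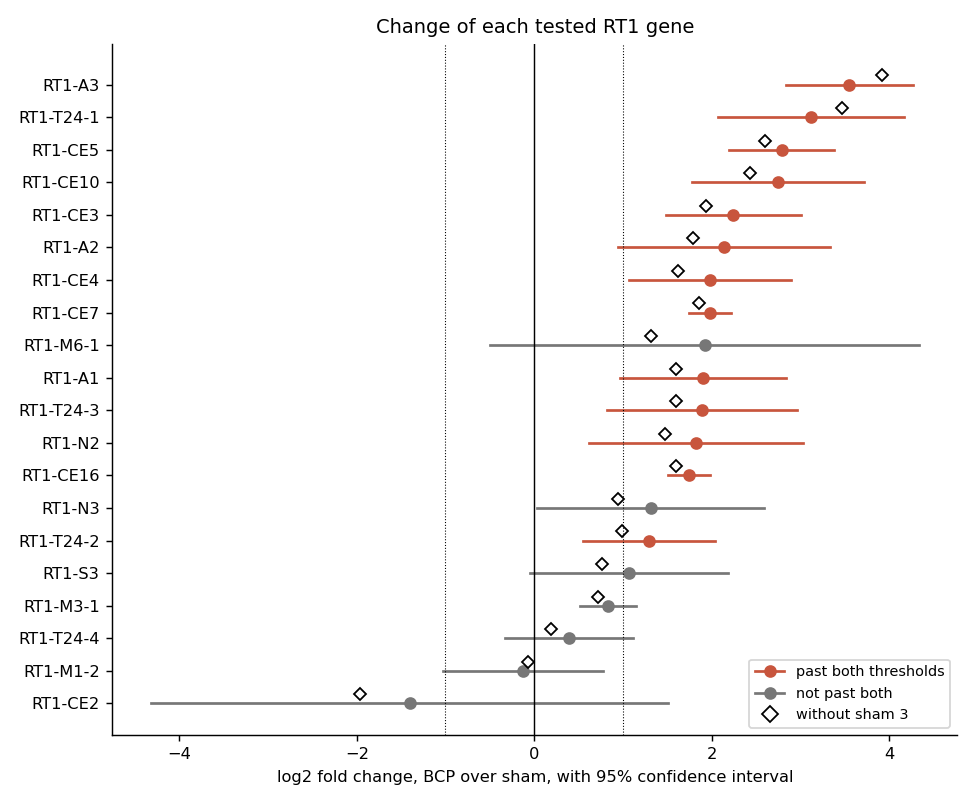
Log2 fold change of BCP over sham for the 20 tested RT1 genes, with 95% confidence intervals from the edgeR fit; red marks genes past both thresholds (dotted lines at -1 and 1) and open diamonds the value without sham 3. The widest intervals belong to RT1-CE2 and RT1-M6-1, whose sham 3 libraries held 8 and 0 counts.

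The most abundant member, RT1-S3, did not pass the test. RefSeq lists H2-T23, the mouse gene of the Qa-1 molecule, among its synonyms. Its levels were 103, 96.0 and 42.3 CPM in sham 1 to 3 and 130, 195 and 179 in BCP 1 to 3. Every BCP library exceeded every sham library, but the sham libraries were far apart, and the log2FC was 1.07 with a 95% interval of -0.05 to 2.19 and an adjusted p of 0.147. It passed with DESeq2 (adjusted p = 0.0453) and with the likelihood ratio test (adjusted p = 0.0434). RT1-N3, a class Ib gene by its description, was alike, with 31.0, 25.0 and 9.19 CPM in sham and 45.0, 59.3 and 56.3 in BCP rats, and its log2FC of 1.31 ± 0.47 (SE) had an adjusted p of 0.126. Without sham 3 its log2FC was 0.94 with an adjusted p of 0.000101, below the threshold for size. RT1-N2, also class Ib, had 42, 81 and 24 counts in sham and 101, 212 and 175 in BCP rats, and rose with a log2FC of 1.83 ± 0.47 (SE) and an adjusted p of 0.0427. It passed in 3 of the 6 fits that left out 1 library.

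The T series was divided. RT1-T24-4, the second most abundant member in sham libraries, was at 30.1, 38.3 and 21.2 CPM in sham and 33.9, 46.9 and 36.5 in BCP rats. The groups overlapped, and the 95% interval of its log2FC of 0.39 ran from -0.32 to 1.11. RT1-T24-3 went from 94, 78 and 43 counts in sham to 149, 339 and 263 in BCP rats. Its log2FC was 1.89 ± 0.41 (SE) with an adjusted p of 0.0279. It passed in 4 of the 6 fits that left out 1 library, with the highest adjusted p at 0.103. RT1-T24-1, at 2, 2 and 4 counts in sham and 16, 18 and 33 in BCP rats, had a log2FC of 3.12 ± 0.50 (SE) and an adjusted p of 7.83e-05. RT1-T24-2, whose interval overlaps RT1-T24-1, had 10, 24 and 8 counts in sham and 26, 38 and 32 in BCP rats, with a log2FC of 1.3 ± 0.36 (SE) and an adjusted p of 0.00957, and it had an adjusted p of 0.0564 without sham 3. Their summed counts gave a log2FC of 1.81 with an adjusted p of 0.00011.

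No member of the M series passed both thresholds. RT1-M3-1, the counterpart of mouse H2-M3, which presents formylated peptides, was at 10.5, 14.4 and 9.87 CPM in sham and 17.2, 23.4 and 21.1 in BCP rats. It was higher in BCP rats (adjusted p = 0.000483), but its log2FC of 0.83 ± 0.15 (SE) was under the threshold for size, although without sham 2 it passed with 1.02 and an adjusted p of 8.68e-05. RT1-M6-1 had 69, 94 and 0 counts in sham and 151, 217 and 211 in BCP rats. Sham 3 was thus at 0 where the other sham libraries were well read. Its log2FC was 1.92 ± 0.89 (SE) with an adjusted p of 0.213, and 1.32 with an adjusted p of 7.04e-06 without sham 3. RT1-M1-2 had 7, 13 and 12 counts in sham and 11, 9 and 7 in BCP rats, and its log2FC of -0.12 had a 95% interval of -1.02 to 0.78.

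Of the remaining 16 members, 11 had counts but were too low to test, and 5 had none. RT1-CE6 had 21 counts in BCP 1 and 0 in the other libraries. RT1-M1-4 had 6, 2 and 1 counts in sham and 3, 7 and 4 in BCP rats. The class II gene RT1-Ha was at 0 in sham and had 2, 1 and 4 counts in BCP rats. RT1-M1-1-ps, RT1-M3-2-ps, RT1-M2, RT1-M1-5, RT1-M5, RT1-S2, RT1-O1 and RT1-Db2 held at most 5 counts in a library. RT1-P2-ps1, RT1-M10-2-ps, RT1-M10-3-ps, RT1-M6-2 and RT1-T18 had no count in any library, which in the smallest library allows up to 0.255 CPM by counting error alone.

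Added over all 36 members, the RT1 level was 316, 307 and 145 CPM in sham 1 to 3 and 622, 806 and 790 in BCP 1 to 3. The means were 256 ± 96.6 (SD, n = 3) in sham and 739 ± 102 (SD, n = 3) in BCP rats, 2.89 times as high, or 2.37 times the mean of sham 1 and sham 2 alone. In bulk tissue more RNA per cell and more cells of a type cannot be told apart. Compared per length, as the FPKM values of the authors allow, RT1-S3 had the highest level in both groups, with 36.6 ± 15.04 FPKM (SD, n = 3) in sham and 78.9 ± 16.3 FPKM (SD, n = 3) in BCP rats. In sham libraries RT1-T24-4 followed with 18.0 ± 5.18 FPKM, then RT1-A2 with 13.0 ± 6.17 FPKM, RT1-CE16 with 12.4 ± 2.20 FPKM and RT1-N3 with 11.8 ± 6.10 FPKM, which lay within each other's spread. In BCP libraries RT1-A2 was the second with 58.8 ± 11.4 FPKM, RT1-CE16 the third with 42.7 ± 3.37 FPKM, and RT1-N3 and RT1-CE10 had 30.0 FPKM each, with SDs of 4.44 and 5.03. RT1-T24-4 was then at 24.2 ± 4.35 FPKM.

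The shares of some members in the RT1 counts differed between the groups. They depend on how reads that match several members were divided, which is not known. RT1-S3 made up 32.5%, 31.2% and 29.2% of the counts on the members in sham 1 to 3 and 21.0%, 24.2% and 22.7% in BCP 1 to 3. The share of RT1-T24-4 was 12.2% ± 2.56 (SD, n = 3) in sham and 5.30% ± 0.61 (SD, n = 3) in BCP rats. RT1-A2 moved the other way, from 10.2% ± 1.54 (SD, n = 3) to 15.8% ± 1.19 (SD, n = 3), and RT1-CE10 from 3.35% ± 0.38 (SD, n = 3) to 7.81% ± 0.22 (SD, n = 3). Over the 20 tested members the share was higher in every BCP library than in every sham library in 7, lower in 4 and overlapping in 9. No such count over all genes was made to set beside these. Shares of a whole move against each other, and these differences were not tested, since 3 against 3 libraries cannot give an exact p under 0.1.

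**Figure D3:**
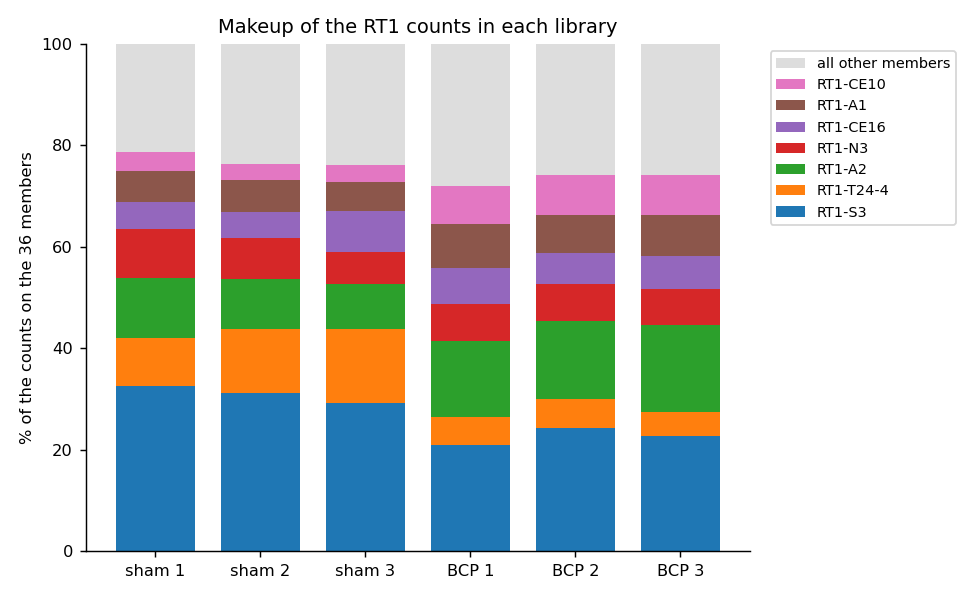
Stacked bars give each gene's percent of the counts on the 36 RT1 genes, for the most abundant members by name and the rest in grey, in each library. RT1-S3 and RT1-T24-4 took smaller shares, and RT1-A2 and RT1-CE10 larger shares, in each BCP library than in each sham library.

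The promoters were searched for 4 motifs of class I genes. Promoters of RefSeq were matched for 28 members, of which 19 were tested and 12 rose. The ISRE core TTTCNNTTC was found in 9 of the 12 members that rose and in 0 of the other 7, and in 8.54% of the 33469 promoters in the table. The 9 were RT1-A1, RT1-A2, RT1-A3, RT1-CE3, RT1-CE4, RT1-CE5, RT1-CE10, RT1-CE16 and RT1-N2. The longer TTTCACTTTC in RT1-N3 and TTTCTCTTTC in RT1-S3, which did not pass, do not match these letters. Longer forms were not searched in any promoter, so the 0 of 7 describes the letters TTTCNNTTC alone. The motif list was also made with earlier results known, so this split is not a test of what the members that rose share. The kappa-B site GGGANTCCC was found in 6 of the 12 and 0 of the 7, and in 0.681% of all promoters. In all 6 it began 19 or 20 bases before the ISRE core, and 20 promoters of the table, 0.0598%, held both. The inverted CCAAT box ATTGG was in 12 of 12 and 3 of 7, and in 37.5% of all promoters, and the site alpha core TGACGC was in 2 of 12 and 1 of 7, and in 6.73% of all. The ISRE core and kappa-B matches shared no bases, and a kappa-B site that reads the same on both strands was counted once.

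**Figure D4:**
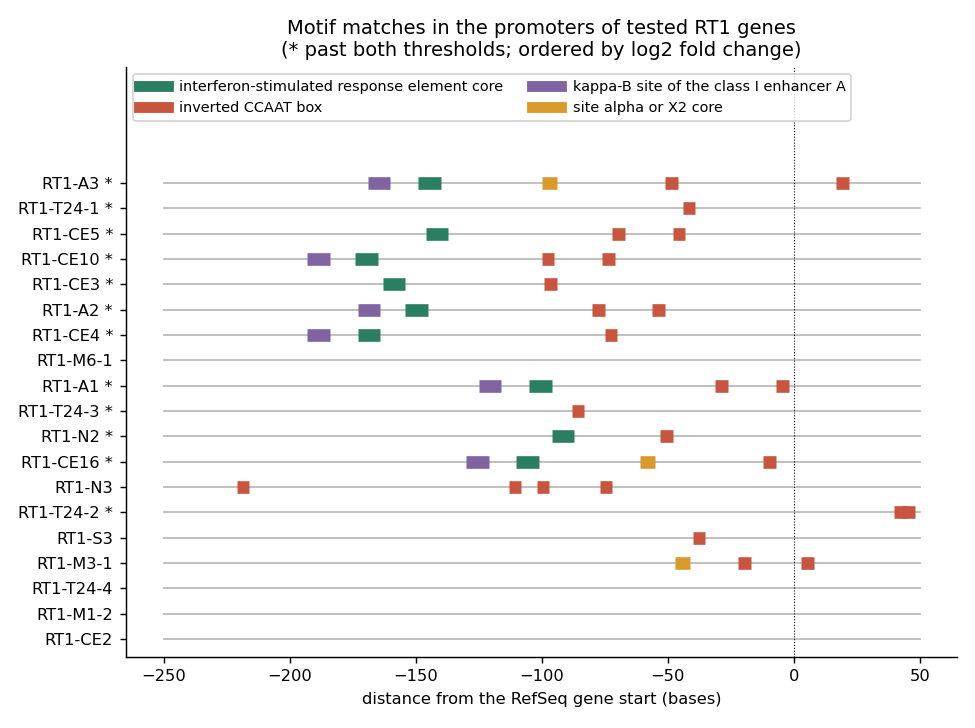
Matches of the 4 motifs (coloured blocks) in the promoters of the 19 tested RT1 genes with a RefSeq promoter, by distance from the gene start in bases; genes are ordered by log2 fold change and an asterisk marks those past both thresholds. The ISRE core TTTCNNTTC lies between -174 and -96 in 9 of the marked genes. Genes without an asterisk have no match to it or to the kappa-B site as searched. Longer forms, such as TTTCACTTTC in RT1-N3 and TTTCTCTTTC in RT1-S3, were not searched and are not drawn.

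These promoters are not independent. Among the 8 promoters of the A and CE genes other than RT1-CE2, the 28 pairs had a median identity of 70.7% (range 53.0% to 84.7%) in global alignments, whereas the 88 pairs between them and the other members had a median of 45.5%. RT1-CE2, RT1-S3, RT1-N3, RT1-T24-4, RT1-M3-1, RT1-M6-1 and RT1-M1-2 held neither the ISRE core nor the kappa-B site in this window, and neither did RT1-T24-1, RT1-T24-2 and RT1-T24-3, which rose. A match describes the letters alone, and a missing match says only that these letters are not in the window.

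The other genes of the class I pathway were higher in BCP rats in most roles. Of a list of 50 names, 42 were tested, and 21 rose and 0 fell, against 6.35% and 0.107% of all genes. The median log2FC of the tested genes was 1.18. This includes 8 genes with at most 10 counts in each sham library, and of the other 34 genes 13 rose, with a median log2FC of 0.79. B2m, the light chain, rose from 298, 292 and 222 CPM in sham to 976, 1163 and 1205 in BCP rats, a log2FC of 2.05 ± 0.16 (SE) with an adjusted p of 0.00133. The summed FPKM of the members was 0.926, 0.915 and 0.596 times that of B2m in sham 1 to 3 and 0.546, 0.597 and 0.566 times in BCP 1 to 3, which overlap (exact permutation test, two-sided p = 0.2, where 0.1 is the smallest possible).

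In the loading machinery 4 of 8 genes passed both thresholds. Tap1 had a log2FC of 2.20 ± 0.41 (SE) with an adjusted p of 0.0227, although it lost the call without sham 2 (adjusted p = 0.0769), without BCP 2 (0.084) or without BCP 3 (0.0823). Tapbpl, which edits the peptides bound, had 1.74 ± 0.30 (SE) with an adjusted p of 0.0119, and not without sham 1 or BCP 2 (0.0527 and 0.0553), and the 2 rows named Tap2 had 1.66 and 1.57. Tapbp, which bridges class I to the transporter, was at a log2FC of 0.99 with an adjusted p of 0.158 and had 451, 474 and 203 counts in sham, so that sham 3 was low here too. The chaperones Calr, Canx and Pdia3 were higher with log2FC of 0.32, 0.15 and 0.43. All 3 catalytic subunits of the immunoproteasome rose, with log2FC of 2.56 for Psmb9, 2.12 for Psmb8 and 1.79 for Psmb10, as did the activator subunits Psme1 with 1.65 and Psme2 with 1.01. Psmb8 lost the call without BCP 2 or BCP 3 (adjusted p = 0.0507 and 0.0561), and Psme2 was under the threshold for size without BCP 2, BCP 3 or sham 3 and with upper-quartile normalization. None of the 3 aminopeptidases of peptide trimming passed both thresholds, and Erap1 had a log2FC of 0.66 with an adjusted p of 0.0724.

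Among 11 tested regulators, 3 rose. Ifng, which encodes interferon gamma, was without counts in sham and had 18, 25 and 18 in BCP rats. It passed the filter through its BCP libraries, so that it had to come out higher. Irf1 rose with a log2FC of 3.15 ± 0.27 (SE) and an adjusted p of 0.00152, and Nlrc5, the transactivator of class I genes, with 2.66 ± 0.38 (SE) and an adjusted p of 0.0102, or 0.0526 without sham 2. The interferon gamma receptor genes Ifngr1 and Ifngr2 and the kappa-B subunit Nfkb1 were higher by 0.64, 0.96 and 0.92 in log2FC. Sham 3 was under 50% of the mean of sham 1 and sham 2 in 10 of the 42 tested pathway genes, Nlrc5 among them.

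Of the class I-like molecules encoded outside RT1, 1 of 6 rose, Cd1d1, which presents lipids, with a log2FC of 1.35 ± 0.28 (SE) and an adjusted p of 0.00109. The neonatal Fc receptor Fcgrt had a log2FC of 0.04 and Mr1 of -0.06, neither past the test. All 7 tested receptors and coreceptors of class I rose, but each had at most 10 counts in any sham library and passed the filter through its BCP libraries, so that it had to come out higher. Klrc1, a receptor subunit that pairs with Klrd1 to bind Qa-1, had 0 counts in sham and 39, 33 and 33 in BCP rats, and Klrd1 had 0, 2 and 0 counts in sham and 12, 33 and 13 in BCP rats. Klrk1 had 7, 3 and 2 counts in sham and 241, 430 and 367 in BCP rats, and the coreceptor chain Cd8a had 0, 2 and 1 in sham and 54, 97 and 80 in BCP rats. Klrc2 had 1, 0 and 1 counts in sham and 71, 88 and 76 in BCP rats, Lilrb4 had 0, 2 and 0 and then 15, 42 and 35, and Lag3 had 7, 10 and 7 and then 80, 137 and 130.

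**Figure D5:**
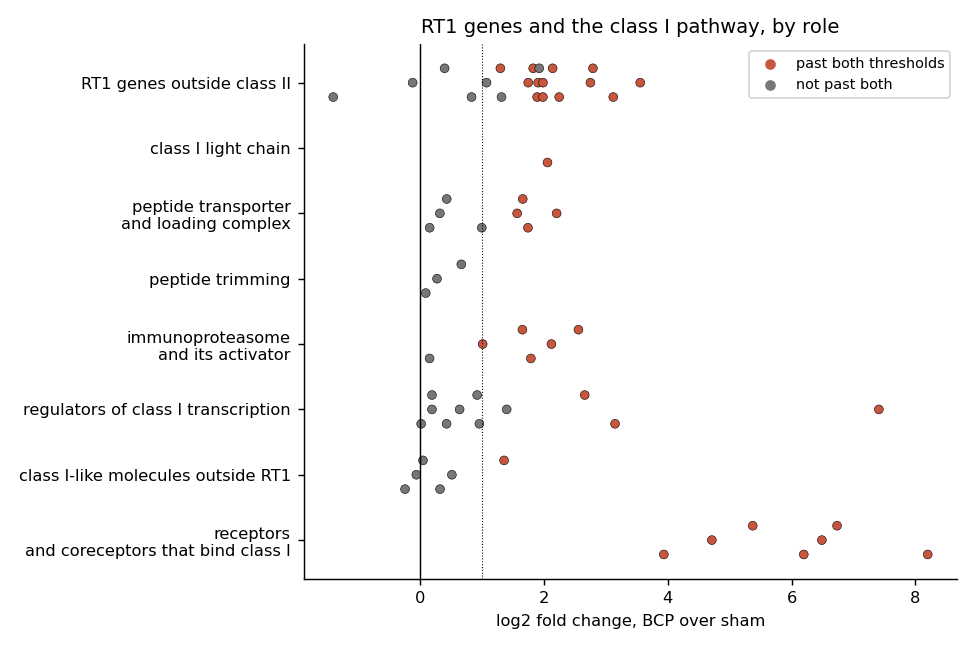
Log2 fold change of BCP over sham for the 20 tested RT1 genes and the 42 tested genes of the class I pathway, each point a gene, in rows by role; red points passed both thresholds and the dotted line marks 1. Values of the receptors and of Ifng, which had 0 to 10 counts in the sham libraries, depend on the prior count of the fit and are not to be read against the rest. The RT1 genes lie between -1.41 and 3.55.

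Summed markers of T cells, microglia, blood monocytes, NK cells, neutrophils and red blood cells were higher in each BCP library than in each sham library. The summed level of 7 T cell markers was 4.88 to 5.80 CPM in sham and 42.0 to 47.1 in BCP rats, and 6 of 6 tested rose. All of these but Cd4 had at most 6 counts in any sham library. They passed the filter through their BCP libraries, so they had to come out higher. Most of the sham level was Cd4, which rat microglia and macrophages also express, at 4.42, 5.66 and 5.20 CPM in sham and 25.6, 20.5 and 19.7 in BCP rats. The other 6 markers together were at 0.140 to 0.458 CPM in sham and 16.4 to 26.6 in BCP rats. For 5 microglial markers the summed level was 161 to 203 in sham and 453 to 548 in BCP rats, and Aif1, Cx3cr1 and Csf1r rose while Tmem119 had a log2FC of 0.19 with an adjusted p of 0.662. For 3 markers of blood monocytes it was 1.22 to 4.80 in sham and 84.0 to 116 in BCP rats, although Ccr2 had 1 count in each BCP library and 0 in sham. For the 5 rows of 4 NK cell markers it was 0.0676 to 0.349 in sham and 6.51 to 13.5 in BCP rats. Of the 2 rows named Gzmb, 1 had 0, 0 and 1 counts in sham and 14, 33 and 47 in BCP rats. The other was at 0 in all libraries, and Ncr1 was at 0 to 6 counts. Markers of neutrophils were at 0.153 to 0.608 in sham and 1.59 to 4.14 in BCP rats, those of red blood cells at 244 to 258 and 465 to 675, and those of B cells at 0 to 0.541 and 0.429 to 1.06 CPM.

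None of the markers of the resident non-microglial cells passed both thresholds. The summed level of 4 astrocyte markers was 2814 to 3145 CPM in sham and 4778 to 6510 in BCP rats, which was uneven: Aqp4 was at 2415 CPM in BCP 1 and at 354 to 379 CPM in the other libraries, Gfap was higher with a log2FC of 0.80 (adjusted p = 5.27e-05) and Aldh1l1 lower with -0.26 (adjusted p = 0.0123). The summed level of 5 neuronal markers was 2264 to 2382 in sham and 2125 to 2332 in BCP rats, and that of 3 endothelial markers 217 to 223 and 214 to 220. That of 4 oligodendrocyte markers was 35215 to 40356 in sham and 25116 to 28116 in BCP rats. The neuronal and glial markers and Hoxc10 and Hoxd10 of the lumbar cord were present in every library. Markers of meninges and fibroblasts were at 27.9 to 47.8 and 42.1 to 97.4 CPM, with Col1a2 at 0 in all libraries, and those of epithelial tumour cells at 2.06 to 3.49 and 3.41 to 4.90. The part of these cells in the RT1 values was not tested.

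Of 112 tested genes between the members on chromosome 20 that are not RT1 genes, 22 rose and 1 fell, that is, 19.6% and 0.893%, beside 6.35% and 0.107% of all tested genes. Their median log2FC was 0.07, beside -0.01 over all. Besides Tap1, Tap2, Psmb8 and Psmb9, they included Ubd, an interferon-induced ubiquitin-like protein, with a log2FC of 6.66, the complement genes Cfb with 2.63, C2 with 3.53 and C4a with 1.71, Tnf with 3.53, and Clic1 with 2.08. Aif1, Ppp1r18, Mt1m and Gpsm3 had log2FC of 2.40, 1.34, 1.69 and 2.01, and the unnamed loci LOC100909630, LOC100364500, AABR07044414.1 and Rn60_20_0048.4 had 2.64, 2.61, 2.52 and 2.12. The heat shock gene Hspa1b fell by 1.19 on the log2 scale with an adjusted p of 0.000364. Tnf and Hspa1b lie inside the interval given to RT1-CE2 and moved in opposite directions. Ubd and Tnf, with sham means of 0.315 and 0.331 CPM, passed the filter through their BCP libraries.

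LncRNA transcripts whose intervals overlap a member numbered 39, of which 14 were tested and 1 rose, against 1.14% of 12157 tested lncRNAs. NONRATT017562.2, at 4887669 to 4906481 of chromosome 20 within the CE cluster, had 11, 13 and 7 counts in sham and 34, 56 and 42 in BCP rats, a log2FC of 2.21 ± 0.33 (SE) with an adjusted p of 0.0158. It overlaps RT1-CE2, RT1-CE4, RT1-CE5 and RT1-CE7, and whether its reads were told apart from theirs by strand is not given in the sources used here. The call was lost without sham 2, without BCP 2 or without BCP 3. NONRATT017037.2 inside RT1-T24-1 had a log2FC of 1.99 with an adjusted p of 0.0588, and NONRATT017510.2 at RT1-T24-2 had -0.81 with an adjusted p of 0.053.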

How the data were processed

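Spinal cord RNA was sequenced in 3 sham and 3 BCP libraries after ribosomal RNA depletion, with strand kept. Per the labels and the submitters' processing notes, the authors mapped reads to Rnor_6.0 with HISAT2 2.0.4 and computed expression with StringTie 1.3.0. They deposited raw counts and the authors' FPKM values for each gene and lncRNA transcript. How reads were counted, by which tool, with or without strand, and what was done with reads that map to several places is not given in the sources used here.

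Counts were fitted with edgeR 4.0.16 in R 4.3.3 (filterByExpr, TMM normalization, robust quasi-likelihood test on condition), separately for 14908 genes and 12157 lncRNAs, with Benjamini-Hochberg adjustment over each table and the thresholds of the study, an adjusted p-value of 0.05 and a fold change of 2. CPM values use the TMM library sizes of the tested genes. SE is that of log2FC. DESeq2 1.42.0 was an alternative, and the others are given with the closing limits. On simulated counts the test recovered 98.5% of 200 genes changed 4-fold among 14797 tested, with 1 unchanged gene called, and 75.5% of 200 lncRNAs among 11628, with 20 unchanged lncRNAs called.

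The gene rule, the pathway, marker and motif lists and the choice of promoters were made with earlier results of these data known. Every tested member was named with its values. Of the pathway genes and the genes between members, at most 15 each past both thresholds were to be named by smallest p-value, and other genes were named after their values were seen. A gene of the pathway list is counted but not reported here. Promoters came from RefSeq on GRCr8, matched by symbol, and were aligned with Biopython 1.88. Figures were drawn with matplotlib 3.10.9. Counts may include PCR duplicates, so limits from counts cover counting error only. Members with overlapping intervals were also summed, an alternative chosen after seeing the data.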

Additional observations from a re-analysis of the deposited data

How the results depend on the processing

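The number of RT1 members that rose was 13, and 12 to 15 with DESeq2, the likelihood ratio test, other normalizations or no filter. It was 9 with at least 10 counts in every library, which leaves fewer members to test, 6 in the test against a fold change of 2, and 7 of 13 tested loci when overlapping members were summed. Leaving out 1 library gave 8 to 13 (8 without BCP 3), 9 to 15 at the adjusted p-value alone (9 without BCP 3), and 0 to 1 that fell, at either rule, the 1 being RT1-CE2 without sham 3. The cause of these differences was not tested. RT1-CE10, RT1-T24-1, RT1-CE16, RT1-A3, RT1-CE7, RT1-CE5 and RT1-CE3 passed in each of those 6 fits. Of these, RT1-T24-1, RT1-A3 and RT1-CE3 were low in sham and needed their BCP libraries to pass the filter. The summed RT1 level was 1.53 higher on the log2 scale and 1.24 to 1.71 higher in the fits that left out 1 library. Over all tested genes 6.35% rose in the main fit and 6.19% without sham 3. That share is not given for the other settings, here or below. Whether the counts of members moved with the whole gene table was thus not tested.

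The pathway genes that rose numbered 21, and 13 with at least 10 counts in every library or against a fold change of 2. The lncRNAs numbered 1, but 4 with the likelihood ratio test and 0 with at least 10 counts, against a fold change of 2 or with the replicate block, and 0 to 1 when 1 library was left out. Genes near 0 changed sign and none of them passed the test: with 1 library left out the log2FC of RT1-M1-2 ranged from -0.351 to 0.0404, the log2FC of Mr1 from -0.222 to 0.0944, the log2FC of Fcgrt from -0.0208 to 0.181 and the log2FC of Rfxank from -0.0790 to 0.149, and Rfxank was at -0.0214 with upper-quartile normalization.

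The replicate numbers did not pair the libraries: deviations of libraries with the same number correlated at -0.105, 0.0439 and -0.0353. With the number as a block 9 members, 17 pathway genes and 0 lncRNAs rose, with RT1-A1, RT1-A2, RT1-T24-3 and RT1-CE10 lost.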
